A study of Mus musculus with 16 samples.

Results

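Fyb1 is the gene that encodes ADAP, an adaptor protein found mostly in hematopoietic cells and also known as FYB. Adaptors have no enzymatic activity of their own and hold signalling proteins together. In T cells and platelets ADAP carries signals from surface receptors to integrins, and its known partners in macrophages include the adaptor SKAP2 and the receptor SIRPα. N6-methyladenosine (m6A) is a methyl mark that the METTL3 complex places on mRNA, and reader proteins that bind it can alter the stability and translation of the transcript.

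Fyb1 (ENSMUSG00000022148) was followed here through all of its peaks, that is, every merged MeRIP-seq peak that carries its symbol, which came to 4 of 7069 peaks. MeRIP-seq sequences fragmented RNA before (input) and after (IP) enrichment with an antibody against m6A. Thioglycolate-elicited peritoneal macrophages (PMs) were taken by lavage 3 days after injection from wild-type (WT) mice and from Adap-/- mice, which lack ADAP through a conventional knockout allele. Cells of each genotype were mock-treated or stimulated with 1 μg/ml lipopolysaccharide (LPS), the cell wall component that activates TLR4, for 6 h. The 4 groups had 2 replicates each, and each replicate gave an input and an IP library, 16 libraries in all. Per the study's methods the mice were sex-matched C57BL/6 littermates, 6 to 8 weeks old. The labels do not say whether replicates came from separate animals, so p-values measure the spread between these samples, which may be technical.

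Reads on the listed peaks ranged from 2121313 to 4325961 per input library and from 5728590 to 19030373 per IP library. Of 9 macrophage markers, 7 had a peak, with a summed input level of 10290 to 12370 CPM, that is, reads scaled to a common library size, in every library. The single markers behind this sum were not steady. In WT PMs Lyz2 had 5201 and 6288 CPM in mock and 3781 and 3264 after LPS. Cd14 had 599.4 and 602.9 CPM in WT mock and 2715 and 2290 in WT LPS PMs. Fcgr1 had 316.9 and 442.3 CPM in WT LPS and 172.1 and 142.8 in Adap-/- LPS PMs. Adgre1 was low, with 9.64 and 6.02 CPM in WT mock PMs. None of the 9 T cell, 5 NK cell, 6 B cell, 6 mast cell, 5 platelet and megakaryocyte or 4 eosinophil markers had a peak, and of 8 neutrophil markers Csf3r alone had one. A gene without a peak is not measured in this table, so this does not show that its RNA was absent. Csf3r, a receptor that macrophages also express, lay at 145 to 193.6 CPM in mock and 354 to 451.8 CPM in LPS PMs, and its part in the Fyb1 values was not tested. In such bulk samples fewer cells of a type and less RNA per cell cannot be told apart.

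The allele was followed in the study by PCR, with separate reactions for the WT and the knockout allele. Only the primers of the WT reaction are given here, and alone they do not separate all genotypes. They are printed 5′ to 3′ in lower case with no part in capitals. The reverse primer of this pair also serves in the reaction for the knockout allele.
ADAP-WT forward: ccgtggggccaaagtcaggagaa
ADAP-WT reverse: cccaccccaaggtcctttcttac
Their place relative to the peaks was not determined, and the extent of the deleted part is not given in the sources used here.

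The 4 peaks lie on the plus strand of chromosome 15 in the GRCm39 build that the submitters' processing notes name. Peak 1, from 6552383 to 6599121, covers part of the 5′UTR, the start codon and coding sequence of ENSMUST00000226412 and spans introns. Peaks 2 and 3 are short stretches of coding sequence in ENSMUST00000090461, from 6609828 to 6610128 and from 6610303 to 6610478. They begin 476 and 951 bases after the annotated start of that transcript on the genome and lie 175 bases apart. Peak 4, from 6614658 to 6649123, is coding sequence of the same transcript and spans introns. The table gives only the outer ends of a peak, so which exons within peaks 1 and 4 were counted is not known here. Peak 4 is also listed for ENSMUSG00000089647, a long non-coding RNA gene on the minus strand that has no other peak. Whether the counting used the strand is not stated, so reads of Fyb1 and of this antisense gene on peak 4 cannot be told apart.

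Peaks 2 and 3 had almost no input reads in Adap-/- PMs. On peak 2, the WT input libraries had 532 and 502 reads in mock and 618 and 592 after LPS, whereas the Adap-/- libraries had 1 and 0 in mock and 1 and 0 after LPS. The 2 genotypes were far apart on this peak in each treatment. On peak 3, WT input libraries had 254 and 272 reads in mock and 318 and 261 after LPS, and Adap-/- libraries had 1 and 5 in mock and 5 and 2 after LPS. These 2 peaks are called the lost peaks below because no Adap-/- input library exceeded 10 reads there and no WT input library had fewer than 50.

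The residual level on the lost peaks was small. Scaled to library size with trimmed mean of M values (TMM), the Adap-/- input level of peak 2 was 0.0898% of WT in mock, with an exact 95% interval of 0.00227% to 0.501%, and 0.0775% after LPS, with an interval of 0.00196% to 0.433%. On peak 3 it was 1.06% of WT in mock, with an interval of 0.387% to 2.32%, and 1.13% after LPS, with an interval of 0.454% to 2.35%. These intervals pool the reads of both replicates and cover counting error only, not the spread between replicates. Whether PCR copies were removed is not known here. The lost peaks were picked by these same counts, so a low level was part of the rule and the percentages are a description, not a test. The order of peaks 2 and 3 in the residual level was not tested.

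**Figure D1:**
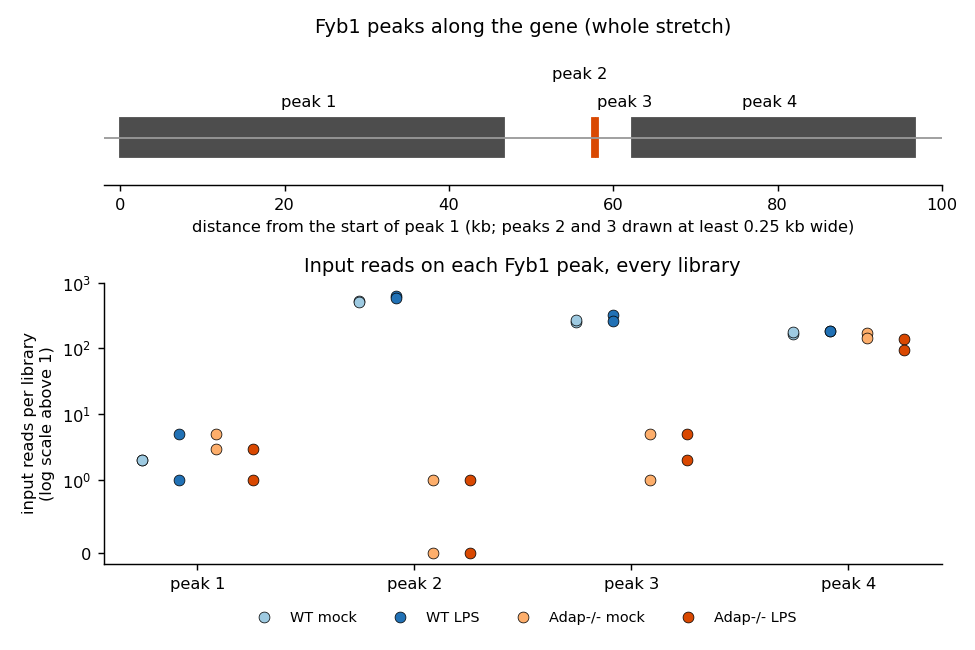
Top, the 4 Fyb1 peaks by distance in kb from the start of peak 1, with the 2 lost peaks in orange and the others in grey. Bottom, input reads on each peak in every library (log scale above 1): WT and Adap-/- points separate on peaks 2 and 3, with 254 or more reads against at most 5, and lie close together on peaks 1 and 4.

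Peak 4 had reads in every Adap-/- input library. Its input reads were 164 and 177 in WT mock, 186 and 184 in WT LPS, 171 and 144 in Adap-/- mock, and 140 and 93 in Adap-/- LPS PMs. On the TMM scale of the peak fit these were 51.4 and 58.8 CPM in WT mock, 66.3 and 76.0 in WT LPS, 53.4 and 41.4 in Adap-/- mock, and 44.9 and 37.9 in Adap-/- LPS PMs. The genotypes overlapped in mock and did not overlap after LPS.

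In mock PMs the peak 4 input level differed between genotypes by a log2 fold change of -0.22 (Adap-/- against WT, SE 0.16, edgeR adjusted p = 0.402), which did not pass the threshold of 0.05. After LPS it was lower in Adap-/- PMs by -0.77 (SE 0.17, edgeR adjusted p = 0.00398). Of all 6794 peaks tested in input, 9.18% were called lower in Adap-/- PMs after LPS. The change in this genotype difference with LPS did not pass the test, at -0.55 (SE 0.23, edgeR adjusted p = 0.296), a comparison in which 2.02% of peaks were called. The call after LPS was lost without Adap-/- LPS replicate 2, where the value was -0.66 (edgeR adjusted p = 0.0573), and over all alternatives the edgeR or DESeq2 adjusted p ran from 0.00345 to 0.0573.

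Peak 1 was too thinly covered in input for a test. Its input reads were 2 and 2 in WT mock, 1 and 5 in WT LPS, 5 and 3 in Adap-/- mock, and 1 and 3 in Adap-/- LPS PMs, and these counts are too few to tell the groups apart. Of the 4 Fyb1 peaks, 3 passed the filter on low counts in input, of which peaks 2 and 3 passed through the WT libraries only. The IP libraries had 12 and 30 reads on peak 1 in WT mock, 51 and 62 in WT LPS, 137 and 0 in Adap-/- mock, and 71 and 46 in Adap-/- LPS PMs. In raw reads the Adap-/- mock replicates thus held both the highest and the lowest IP count of this peak. On the TMM scale over all 16 libraries these replicates had 6.85 and 0 CPM, and WT LPS replicate 1 was highest with 7.69 CPM.

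Summed over all 4 peaks, the input level of Fyb1 was lower in Adap-/- than in WT PMs. On the TMM scale of the gene fit it was 286.9 and 302.1 CPM in WT mock, 404 and 436.1 in WT LPS, 55.2 and 43.5 in Adap-/- mock, and 48.8 and 41.7 in Adap-/- LPS PMs. The mean was 294.5 ± 10.8 CPM (SD, n = 2) in WT mock, 420 ± 22.7 (SD, n = 2) in WT LPS, 49.3 ± 8.26 (SD, n = 2) in Adap-/- mock and 45.2 ± 5.07 (SD, n = 2) in Adap-/- LPS PMs. On this scale WT LPS PMs had the highest level, the 2 Adap-/- groups overlapped, and no other neighbouring groups in this order did. With library totals as the scale WT mock PMs were highest, with a mean of 426.8 CPM against 274.7 in WT LPS PMs.

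The summed level was 5.98-fold lower in Adap-/- than in WT mock PMs, a log2 fold change of -2.58 (SE 0.13, edgeR adjusted p = 8.79e-09), and 9.22-fold lower after LPS, -3.21 (SE 0.13, edgeR adjusted p = 6.16e-10). Among all 4745 genes tested in input, 8.45% were called lower in mock and 8.96% after LPS. No other gene had a smaller p in either comparison, and after LPS no other gene had a lower log2 fold change, while 5 genes had a lower one in mock. Fyb1 is the gene altered in these mice, so a lower level followed from the design, and these p-values and ranks are a description. The size of the fold depends on which stretches have peaks, because peaks 2 and 3 together held 81.9 ± 0.952% (SD, n = 2) of the Fyb1 input reads in WT mock and 82.6 ± 1.05% (SD, n = 2) in WT LPS PMs. In Adap-/- PMs they held 2.21 ± 1.53% (SD, n = 2) in mock and 3.06 ± 1.44% (SD, n = 2) after LPS.

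**Figure D2:**
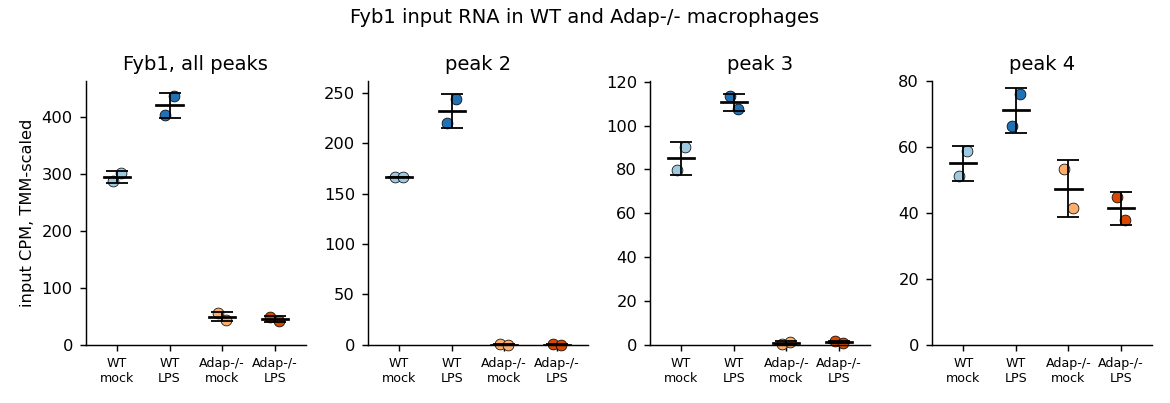
TMM-scaled input CPM of Fyb1 and of its peaks 2, 3 and 4 in the 4 groups; points are libraries, lines are means and bars are SD (n = 2). The summed level and peaks 2 and 3 are near the bottom of their axes in Adap-/- PMs, whereas peak 4 lies between 37.9 and 53.4 CPM there and between 51.4 and 76.0 in WT PMs.

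On the TMM scale Fyb1 input RNA was higher with LPS in WT PMs. In the gene fit LPS shifted the summed level by 0.51 on the log2 scale (SE 0.11, edgeR adjusted p = 0.000841), which is 1.43-fold, and it was higher than in mock in both WT LPS libraries. LPS changed much of the table: 29.5% of the 4745 genes were called higher and 29.7% lower in WT PMs, so a call in this comparison is common. Of the tested genes, 73.0% had a lower LPS log2 fold change than Fyb1.

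The sign of this LPS effect depends on the scaling. TMM scales libraries so that most genes do not shift, and the median gene then changed by -0.05 on the log2(CPM + 1) scale in WT PMs. When input counts were divided by the total reads on listed peaks alone, the median gene of LPS PMs fell by 1.15 (WT) and by 1.09 (Adap-/-) in log2 units. On that scale Fyb1 had 426.8 ± 11.8 CPM (SD, n = 2) in WT mock and 274.7 ± 21.4 CPM (SD, n = 2) in WT LPS PMs, a log2 fold change of -0.64 (SE 0.12, edgeR adjusted p = 7.53e-05), the opposite sign to the TMM value. Relative to the median gene, Fyb1 was 0.56 higher on the log2(CPM + 1) scale with TMM and 0.52 higher with library totals. The files hold no measure of RNA per cell, so an LPS effect on the absolute amount of Fyb1 RNA cannot be given.

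**Figure D3:**
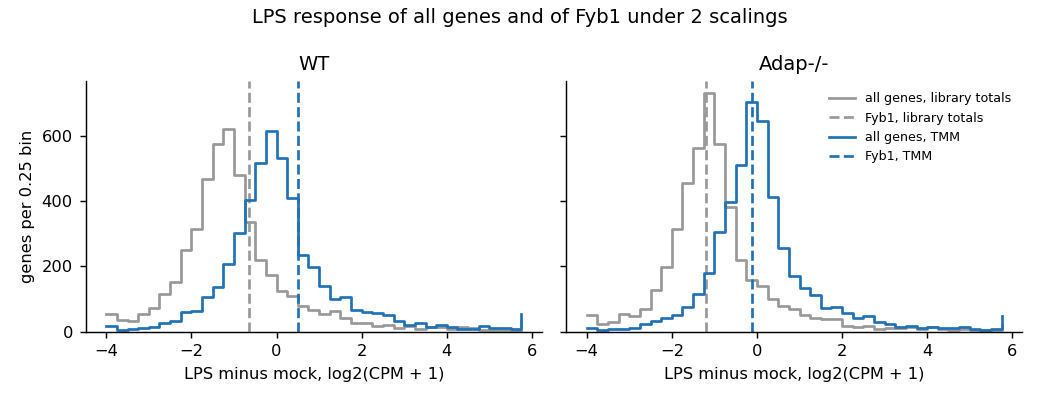
Number of genes per 0.25 of the LPS minus mock difference of input log2(CPM + 1), in WT (left) and Adap-/- (right) PMs, with counts scaled by library totals (grey) or TMM (blue); differences beyond the axis are in the end bins. Dashed lines mark Fyb1, which lies to the right of the peak of each WT distribution and near the peak of each Adap-/- distribution.

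On the TMM scale the LPS effect in WT PMs had the same sign on the separate peaks. Peak 2 had 166.6 and 166.9 input CPM in WT mock and 220.4 and 244.4 after LPS. Both LPS libraries were above both mock libraries, with a log2 fold change of 0.48 (SE 0.12, edgeR adjusted p = 0.00180). Of all peaks tested in input, 30.3% were called higher with LPS in WT PMs.

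Peak 3 had 79.5 and 90.4 input CPM in WT mock and 113.4 and 107.7 after LPS, again without overlap, with a log2 fold change of 0.38 (SE 0.15, edgeR adjusted p = 0.0309). This call is weak, since DESeq2 gave 0.41 (DESeq2 adjusted p = 0.112), and edgeR gave 0.27 when WT mock replicate 1 was left out, 0.35 when WT LPS replicate 1 was, and 0.42 when WT LPS replicate 2 was, none of them called. Among the alternatives that kept the sign, the edgeR or DESeq2 adjusted p ran from 0.0236 to 0.232. Peak 4 had 55.1 ± 5.30 CPM (SD, n = 2) in WT mock and 71.2 ± 6.81 CPM (SD, n = 2) in WT LPS PMs, a log2 fold change of 0.37 (SE 0.16, edgeR adjusted p = 0.0553) that missed the threshold. With RLE size factors it was 0.39 and passed (edgeR adjusted p = 0.0426). With library totals as the scale, the log2 fold changes of peaks 2, 3 and 4 were -0.59, -0.69 and -0.70.

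Per length, peaks 2 and 3 were covered to a similar extent in WT input. The TMM-scaled input level per 100 bases was 55.6 ± 0.0747 CPM (SD, n = 2) on peak 2 and 48.6 ± 4.40 CPM (SD, n = 2) on peak 3 in WT mock PMs. After LPS it was 77.5 ± 5.65 CPM (SD, n = 2) on peak 2 and 63.2 ± 2.29 CPM (SD, n = 2) on peak 3. Peak 2 had 1.85 to 2.27 reads for each read of peak 3 in the 4 WT input libraries and 2.17 to 2.74 in the 4 WT IP libraries. Peaks 1 and 4 span introns, so no level per length is given for them.

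In Adap-/- PMs no LPS effect on the remaining Fyb1 reads passed the test. The reads outside the lost peaks, on peaks 1 and 4 together, numbered 54.5 and 42.0 CPM in mock and 46.8 and 40.8 after LPS on the TMM scale of the gene fit, and the groups overlapped. The log2 fold change was -0.13 (SE 0.17, edgeR adjusted p = 0.540) among genes of which 54.8% were called in either direction. In WT PMs the same reads had 50.03 and 56.7 CPM in mock and 67.3 and 79.1 after LPS, and the log2 fold change was 0.45 (SE 0.15, edgeR adjusted p = 0.0196). The WT call was lost when WT mock replicate 1 was left out (0.36, edgeR adjusted p = 0.116) and when WT LPS replicate 2 was (0.36, edgeR adjusted p = 0.126), and the edgeR or DESeq2 adjusted p ran from 0.0116 to 0.126 over the alternatives that kept the sign.

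The LPS responses of the 2 genotypes were not shown to differ on these reads. The difference, Adap-/- minus WT, was -0.58 (SE 0.23, edgeR adjusted p = 0.270). For the sum over all peaks it was -0.62 (SE 0.18, edgeR adjusted p = 0.123), while 1.56% of genes were called in this comparison. With library totals as the scale, the LPS log2 fold change outside the lost peaks was -0.70 in WT and -1.24 in Adap-/- PMs, both called.

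The IP libraries measured m6A capture of the Fyb1 transcript. On the TMM scale over all 16 libraries, peak 2 had 151 and 161.2 IP CPM in WT mock and 201.6 and 275.5 in WT LPS PMs, and peak 3 had 69.5 and 59.7 in WT mock and 79.3 and 100.7 in WT LPS PMs. On this scale both peaks had a higher IP level in each WT LPS library than in either WT mock library. Raw IP reads overlapped between the groups, with 1174 and 2305 on peak 2 in WT mock and 1337 and 3967 in WT LPS PMs. The IP-to-input ratio sets these levels against the input of the same replicate. Its absolute size follows from the scaling, so only comparisons between peaks and groups can be read from it.

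The IP-to-input ratio of Fyb1 peaks in WT PMs showed no LPS effect that passed the test. On peak 2 the ratio was 0.733 and 0.772 in WT mock and 0.802 and 0.994 in WT LPS PMs. The log2 change of the ratio was 0.26 (SE 0.88, edgeR adjusted p = 0.966), and 0.22 with only the 8 libraries compared (SE 0.29, edgeR adjusted p = 0.850). On peak 3 the ratio was 0.706 and 0.527 in WT mock and 0.613 and 0.824 in WT LPS PMs, and the groups overlapped. The log2 change on peak 3 was 0.23 (SE 0.66, edgeR adjusted p = 0.961), and 0.19 with only the 8 libraries compared (SE 0.27, edgeR adjusted p = 0.866). These tests took 1 mean per group and library kind and did not pair the input with the IP of a replicate.

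Peak 4 allowed the ratio to be compared in both genotypes. It was 0.642 and 0.435 in WT mock, 0.608 and 0.594 in WT LPS, 0.379 and 0.480 in Adap-/- mock, and 0.682 and 0.593 in Adap-/- LPS PMs. Both Adap-/- LPS ratios were above both Adap-/- mock ratios, but the log2 change of 0.60 (SE 0.29, edgeR adjusted p = 0.462) did not pass the test. The genotypes differed by -0.32 in mock (SE 0.29, edgeR adjusted p = 1.00) and 0.10 after LPS (SE 0.29, edgeR adjusted p = 1.00), and LPS changed the WT ratio by 0.18 (SE 0.29, edgeR adjusted p = 0.894). None of these passed, and of 7058 peaks in the ratio fit 0.00% were called by edgeR in 3 of the 4 comparisons and 0.0142% in that of the genotypes after LPS. Across these peaks, 763 (LPS in WT), 812 (LPS in Adap-/-), 148 (genotypes in mock) and 503 (genotypes after LPS) had an unadjusted p below 0.05 in edgeR, and DESeq2 called 202, 117, 0 and 29 peaks, none of them of Fyb1. The spread between IP replicates was large, with a biological coefficient of variation of 30.6% in the ratio fit against 8.92% in the input fit of peaks. Small changes in m6A capture on Fyb1 could therefore go uncalled, and the smallest change that would be called is not given here.

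Among 5680 peaks with at least 10 reads in every input library, Fyb1 peak 4 had a low ratio. It stood at percentile 20.3 and 11.8 in WT mock, 18.2 and 20.3 in WT LPS, 7.10 and 12.1 in Adap-/- mock, and 30.7 and 22.98 in Adap-/- LPS PMs. Peak 2 stood nearer the middle, at percentile 29.9 and 41.6 in WT mock and 36.3 and 53.8 in WT LPS PMs. Peak 3 lay at 27.1 and 18.6 in WT mock and at 18.6 and 40.3 in WT LPS PMs. Each ratio given for peaks 2, 3 and 4 was therefore below the median of all peaks, except WT LPS replicate 2 on peak 2. There 0.994 stood against a median of 0.944. Peak 1 had fewer than 10 input reads in every library and has no ratio here, so this does not cover the whole of Fyb1.

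**Figure D4:**
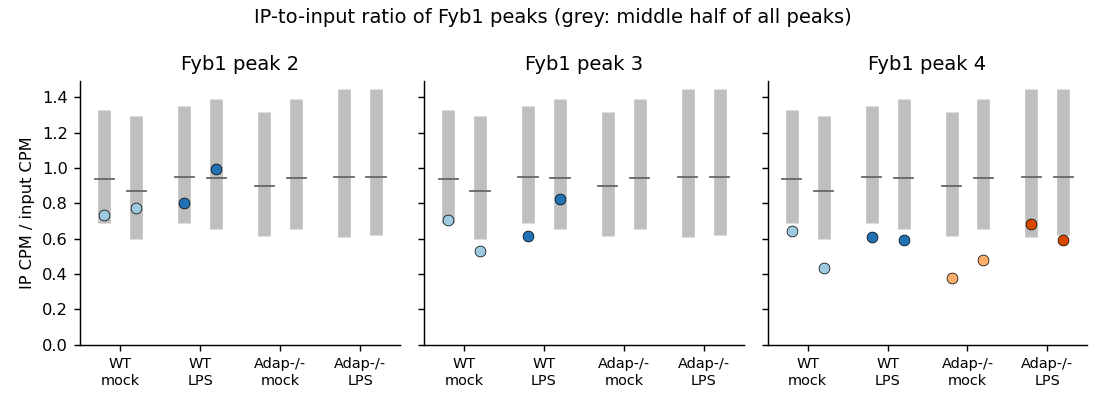
Ratio of TMM-scaled IP to input CPM for Fyb1 peaks 2, 3 and 4 in each replicate, over the interquartile range (grey bar) and median (line) of 5680 peaks. Peaks 2 and 3 have no point in Adap-/- PMs because their input had fewer than 10 reads, and the peak 4 points lie between 0.379 and 0.682, below every median.

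Few IP reads fell on the lost peaks in Adap-/- PMs, with 1 library apart from the rest. On peak 2 the Adap-/- IP libraries had 59 and 0 reads in mock and 0 and 0 after LPS. On peak 3 they had 42 and 1 in mock and 8 and 1 after LPS. All the higher values come from Adap-/- mock replicate 1, whose input had 1 read on each of these peaks.

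In that IP library the level of peak 2 was 1.89% and that of peak 3 3.25% of the mean of the WT mock IP libraries. For the IP libraries with 0 reads on peak 2, a count of 0 allows up to 0.403 CPM in Adap-/- mock replicate 2 and 0.151 and 0.265 CPM in Adap-/- LPS replicates 1 and 2, taken as 3 counts per library, against 151 to 275.5 CPM in WT IP libraries. Across peaks the 2 Adap-/- mock IP libraries had a Spearman correlation of 0.875 and the 2 WT mock IP libraries of 0.855, against 0.982 or more between input replicates. The part of library mixing or of mapping in the 59 and 42 reads was not tested.

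Most genes that work with ADAP had no peak in this table. Of 43 ADAP partner genes, 15 could be tested in input and 28 had no peak, among them Skap2 and Skap1, which bind ADAP, Lcp2, the SLP-76 adaptor, the ADAP relatives Pram1 and Fyb2, and Mettl3, the m6A methyltransferase. In the NF-κB module none of 4 genes was tested. Of the 15 tested genes, 10 were higher and 5 lower with LPS in WT PMs and 8 higher and 1 lower in Adap-/- PMs, against 29.5% of all genes called higher and 29.7% lower in WT and 28.3% and 26.5% in Adap-/- PMs. The median partner changed by 0.71 in WT and 0.69 in Adap-/- PMs on the log2 TMM scale, and the median of all genes by -0.06 and -0.04. With library totals as the scale, 3 were called higher and 9 lower in WT and 3 higher and 8 lower in Adap-/- PMs, so the split depends on the scaling. On that scale the median of all genes itself fell by 1.15 in WT and 1.09 in Adap-/- PMs on the log2(CPM + 1) scale. The share of all genes called on it is not given here, so this split is not a result about the partners.

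Among the adaptors, receptor and kinases, Syk, a tyrosine kinase downstream of integrins and Fc receptors, was higher with LPS by 1.02 in WT (SE 0.11, edgeR adjusted p = 8.03e-07) and 0.99 in Adap-/- PMs (SE 0.11, edgeR adjusted p = 1.28e-06) on the log2 TMM scale. With library totals the values of Syk were -0.13 in WT and -0.12 in Adap-/- PMs, neither of them called. Sirpa, the inhibitory receptor that binds CD47, had 5614 and 5485 CPM in WT mock and 4125 and 4354 in WT LPS PMs, a log2 fold change of -0.39 (SE 0.11, edgeR adjusted p = 0.00568). The Adap-/- value of Sirpa was -0.19 (SE 0.11, edgeR adjusted p = 0.145) and was not called. Fyn, a Src family kinase that phosphorylates ADAP, was higher in WT PMs by 0.70 (SE 0.15, edgeR adjusted p = 0.000852) on the TMM scale, with the opposite sign under library totals. The Adap-/- value of Fyn was 0.20 (edgeR adjusted p = 0.302). Fyn and Lat2 share a peak with another gene, so their reads are uncertain.

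Lat2, an adaptor of myeloid and B cells, and Ptk2b, the focal adhesion kinase relative Pyk2, were lower in Adap-/- PMs after LPS. Lat2 had 2222 and 2312 input CPM in WT mock, 1023 and 990.6 in WT LPS, 1651 and 1476 in Adap-/- mock, and 681.6 and 603.1 in Adap-/- LPS PMs, so it was lower in Adap-/- PMs without overlap in both treatments. Its log2 fold change between genotypes was -0.54 in mock (SE 0.10, edgeR adjusted p = 0.00225) and -0.65 after LPS (SE 0.11, edgeR adjusted p = 0.000757). Ptk2b had 402.2 and 491.7 CPM in WT LPS and 281.3 and 257.1 in Adap-/- LPS PMs, a log2 fold change of -0.73 (SE 0.11, edgeR adjusted p = 0.000470), and in mock it was -0.28 (edgeR adjusted p = 0.0931). The change of the genotype difference with LPS did not pass the test for Ptk2b (-0.45, SE 0.16, edgeR adjusted p = 0.199). Of the 15 tested partners 0 were called by edgeR or by DESeq2, with an unadjusted p below 0.05 for Fyn and Ptk2b only. Over all genes only 1.56% were called by edgeR in this comparison, so 0 of 15 is not a result about the partners.

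Of 6 integrin genes 5 were tested, and 2 α subunits were higher in Adap-/- PMs. Itgal, the α subunit of LFA-1, had 68.4 and 76.1 input CPM in WT mock and 157.7 and 179.9 in Adap-/- mock PMs, and 243.5 and 214.7 in WT LPS against 415.5 and 489.6 in Adap-/- LPS PMs. The genotypes did not overlap, with log2 fold changes of 1.23 in mock (SE 0.13, edgeR adjusted p = 1.98e-05) and 0.98 after LPS (SE 0.12, edgeR adjusted p = 6.12e-05). Itga4, the α subunit of VLA-4, was higher in Adap-/- PMs by 0.91 in mock (SE 0.16, edgeR adjusted p = 0.00124) and 0.77 after LPS (SE 0.13, edgeR adjusted p = 0.000997). Itga5, Itgb1 and Itgb2 were not called between the genotypes. Itgal, Itga4 and Itga5 were called higher with LPS in both genotypes on the TMM and the library total scale.

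Among actin regulators and integrin activators, Nck1, Vasp, Was, Apbb1ip and Tln1 were tested, and none was called between the genotypes. Vasp, which promotes actin filament growth, was higher with LPS by 1.09 in WT and 1.35 in Adap-/- PMs, and Apbb1ip, the Rap1 effector RIAM, by 1.18 and 1.07. With library totals Vasp had -0.06 in WT and 0.24 in Adap-/- PMs, and Apbb1ip had 0.03 and -0.04, none of them called.

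Between genotypes 2 of the 15 partners were called higher and 1 lower in mock, and 2 higher and 2 lower after LPS. Over all genes 17.3% were called in mock and 15.6% after LPS, of which 8.81% and 6.62% were higher and 8.45% and 8.96% lower. With library totals as the scale the number called after LPS was 7, for which no share over all genes is given here.

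**Figure D5:**
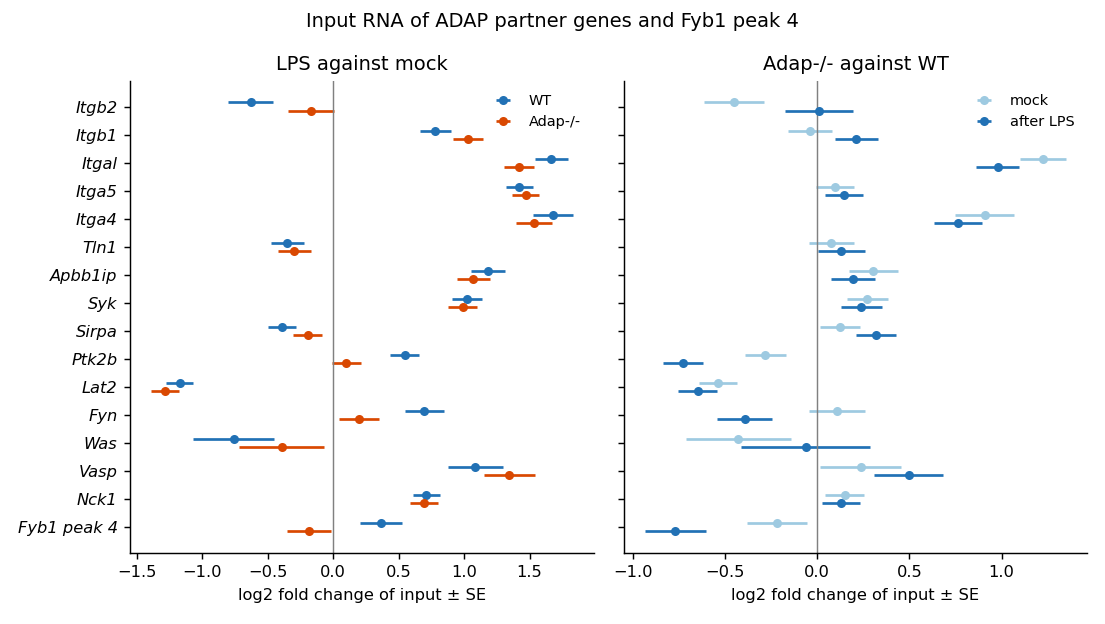
Log2 fold change of TMM-scaled input ± SE for the 15 tested partner genes and Fyb1 peak 4, for LPS against mock (left, WT blue and Adap-/- orange) and for Adap-/- against WT (right, mock light and LPS dark blue). Itgal and Itga4 lie to the right of 0 in both genotype comparisons, from 0.77 to 1.23, and Lat2 lies to the left, at -0.54 and -0.65.

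Genes near Fyb1 on chromosome 15 showed 1 call between the genotypes apart from the gene that shares peak 4, that of Rictor in mock PMs. Within 1000000 bases of its peaks, 4 other genes had a peak. ENSMUSG00000089647 shares peak 4 and gives that peak's reads. Dab2, an endocytic adaptor with a peak 93.1 kb away, and Osmr, the oncostatin M receptor with a peak 195.9 kb away, were not called between genotypes. Rictor, a subunit of mTORC2 with its nearest peak 167.3 kb away, had 30.7 and 19.3 input CPM in WT mock and 38.7 and 44.9 in Adap-/- mock PMs, without overlap. It was higher in Adap-/- mock PMs by a log2 fold change of 0.74 (SE 0.19, edgeR adjusted p = 0.0142) and was not called after LPS (0.32, SE 0.16, edgeR adjusted p = 0.227). For the 4745 genes, 8.81% were called higher in Adap-/- mock PMs.

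The genes most like Fyb1 across the 8 input libraries were Ehd4, Mgat1, ELOF1, Mrps7 and Sdf2, with a Pearson r of log2(CPM + 1) from 0.961 to 0.980. The libraries fall into 2 genotypes, and these genes share with Fyb1 mainly a lower level in Adap-/- PMs. Ehd4, an endocytic recycling protein, had a log2 fold change between genotypes of -0.58 in mock and -0.71 after LPS, much smaller than that of Fyb1. After the mean of each genotype was subtracted, the highest r was that of ENSMUSG00000089647 (0.980), which shares peak 4, followed by ISY1 and Rab43, which share a peak and have the same r (0.974), Rbbp6 (0.972) and ENSMUSG00000117322 (0.948). These values are given as a description over 8 libraries that share their scaling.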

How the data were processed

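MeRIP-seq input and IP libraries of WT and Adap-/- PMs, with and without LPS, were analysed from 1 table in which the authors deposited raw read counts on merged peaks. RNA was cut to fragments of about 100 nt. How the counts were made is not given in the sources used here beyond the submitters' processing notes, which list Bowtie2 2.2.8, MACS2 2.1.2, DiffBind 2.8 and GRCm39, with no role or order. A peak with several genes is listed once for each, and the 8094 lines were reduced to 7069 distinct peaks.

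Gene input levels are input counts summed over the peaks of a gene, so transcripts without a peak are not measured. Counts were fitted in R 4.3.3 with edgeR 4.0.16 (quasi-likelihood test on TMM-scaled counts, p adjusted by Benjamini-Hochberg over all features and called below 0.05, filterByExpr keeping features with a minimum count of 10 and a total of 15), with 1 mean per group. The 8 input libraries were fitted for 4745 genes and 6794 peaks. Reads outside the lost peaks of Fyb1 replaced its row in the gene fit. The IP-to-input ratio was fitted on all 16 libraries and 7058 peaks. SE is the absolute log2 fold change over the square root of F. CPM are TMM-scaled unless another scale is named. Steps were tested on simulated data.

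Named genes were Fyb1, the tested partners, genes within 1000000 bases and the 5 genes with the highest r by each measure (log2(CPM + 1)). The gene, lists and rules were chosen with earlier results of these data known. Replicate numbers were not used as pairs between groups, since the correlations of replicate differences lay between -0.07 and 0.10. Alternatives were DESeq2 1.42.0, RLE factors, no filter, a replicate block, subsets of libraries, single libraries left out, unshared peaks only and, chosen after seeing the data, library totals as the scale and a crossed pairing. Some genes of the partner list are not reported here. Primer sequences are from the study's supplementary tables.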

Additional observations from a re-analysis of the deposited data

How the results depend on the processing

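The genotype difference of Fyb1 summed over its peaks kept its direction and its call under all alternatives run, with log2 fold changes in single-library omissions from -2.76 to -2.42 in mock and from -3.34 to -3.13 after LPS. Its size was not stable. With only unshared peaks, which leaves out peak 4, it was -6.75 in mock and -7.29 after LPS. The LPS effect on the summed level in WT PMs was called throughout but turned to -0.64 with library totals as the scale. On that scale, chosen after seeing the data, the other LPS values were -1.22 for the sum in Adap-/- PMs, -0.70 in WT and -1.24 in Adap-/- PMs outside the lost peaks, -0.59, -0.69 and -0.70 on peaks 2, 3 and 4 in WT, and -1.23 on peak 4 in Adap-/- PMs, and 7 partners were called between genotypes after LPS instead of 4. These totals count reads on listed peaks, and total library depth was not analysed here. The share of all genes called on the library total scale is not given here, so the number of partners called on it is not a result about them.

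DESeq2 gave 0.41 for the WT LPS effect on peak 3, no longer called, and RLE size factors gave 0.39 for that on peak 4, then called. With only unshared peaks the LPS value of the sum in Adap-/- PMs was 0.0125, and outside the lost peaks no unshared peak passed the filter, so there was no value. Other causes were not tested.

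When single libraries were left out, the LPS value in Adap-/- PMs ranged from -0.28 to 0.0663 for the sum, from -0.31 to 0.0673 outside the lost peaks and from -0.36 to 0.0127 on peak 4, each positive only without Adap-/- mock replicate 1. The WT LPS value ranged from 0.36 to 0.59 outside the lost peaks and from 0.27 to 0.48 on peak 3. The genotype value outside the lost peaks, which the choice of those peaks bears on, ranged from -0.34 to 0.0306 in mock and from -0.86 to -0.63 after LPS, and that of peak 4 after LPS from -0.91 to -0.66. The peak 4 ratio ranged from -0.11 to 0.49 for LPS in WT PMs, from 0.36 to 0.71 for LPS in Adap-/- PMs, from -0.57 to -0.0333 between genotypes in mock and from -0.0216 to 0.18 after LPS. For LPS in WT PMs the ratio ranged from 0.0916 to 0.40 on peak 2 and from 0.00689 to 0.46 on peak 3, with the lowest values without WT LPS replicate 2. Partners called between genotypes in mock numbered 2 to 4, and the share of all genes called without each library is not given here.

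With the replicate block, which rests on a shared number only, the WT LPS value of the sum was 0.51 and no call of Fyb1 or its peaks changed. In the ratio fit the block called 7 peaks for LPS in WT PMs where none was called, and 28 with the WT mock numbers crossed, none of them of Fyb1. The input and IP replicate differences of WT mock PMs had a correlation of -0.11. With 2 replicates and an IP spread of this size, small changes in m6A capture are beyond these data.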
